A study of Mus musculus with 93 samples.

Results

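SREBP2, encoded by Srebf2, is the transcription factor that switches on cholesterol synthesis and uptake when a cell is short of sterols. It is made as a membrane protein of the endoplasmic reticulum, where it is bound to its escort Scap. When sterols are low, Scap carries SREBP2 to the Golgi for cleavage, and when they are high, Insig1 or Insig2 holds the Scap complex back. Insig1 is itself a target of SREBP2. In the liver, this circuit sets the uptake of plasma cholesterol as well as its synthesis, and 3 further genes are part of it here: Stard4, whose product carries cholesterol between membranes, Mylip (also called Idol), a ubiquitin ligase that limits the uptake of LDL, and Tmem97, a membrane protein that binds NPC1 and affects LDL uptake.

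The liver RNA levels of Srebf2, Scap, Insig1, Insig2, Stard4, Mylip, and Tmem97 are described here. They were selected by name, with earlier results of these data known, and each matched 1 Ensembl gene of the table, so they are 7 of 53465 genes. All 7 passed the filter on low counts, as did 19110 genes in all. The lowest count of any of them in any mouse was 424 reads, for Mylip.

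The study asked how the genetic background shapes the metabolic and liver response to a diet rich in fat. Livers came from 93 male mice of 7 inbred strains, the classical laboratory strains A/J, C57BL/6J, DBA/2J, and 129S1/SvImJ and the wild-derived CAST/EiJ, PWK/PhJ, and WSB/EiJ, none of which carried an engineered allele according to the labels. Mice were kept at 30°C, the thermoneutral temperature of a mouse, from 6 wk of age. From 7 wk of age they received a Western diet (WD, 40% of energy from fat) or a control diet (CD, 10% of energy from fat), and they were killed after 17 wk on the diet, at 24 wk of age and after a 4 h fast. CD and WD groups held 8 and 8 C57BL/6J mice, 6 and 7 DBA/2J, 5 and 6 A/J, 7 and 6 129S1/SvImJ, 6 and 6 WSB/EiJ, 7 and 8 CAST/EiJ, and 6 and 7 PWK/PhJ, which gave 14 groups. Each mouse is 1 animal and 1 library, and each strain came in 2 or 3 cohorts, as the labels number them.

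Depth was even, with 40020424 to 49894856 reads on genes per mouse, and RNA integrity numbers were 7.0 to 9.7. Reads were mapped to the C57BL/6J genome, and the share of unmapped reads ranged from 2.11% in A/J on WD to 13.3% in CAST/EiJ on WD as group means. The share also moved with diet within strains, from 3.5 ± 0.71% (SD) on CD to 7.88 ± 1.18% on WD in PWK/PhJ, from 4.52 ± 1.61% to 7.42 ± 2.52% in WSB/EiJ, and from 10.8 ± 1.66% to 13.3 ± 1.01% in CAST/EiJ. It went the other way in DBA/2J, from 6.45 ± 0.62% on CD to 4.77 ± 0.665% on WD. Means on CD and WD were 2.23% and 2.82% in C57BL/6J, 4.55% and 5.57% in 129S1/SvImJ, and 2.25% and 2.11% in A/J. The part of the unmapped share in the results was not tested. Values are CPM, the reads of a gene scaled to the total of gene reads of each mouse with TMM factors, and a level per kilobase of exon is used wherever genes are compared with each other. The 5 hepatocyte markers (Alb, Ttr, Apoa1, Cps1, and Hnf4a) summed to 101000 to 195000 CPM over the 7 CD groups and to 73500 to 134000 CPM over the WD groups, and between 1 and 4 of them fell on WD in each strain. The 6 macrophage markers summed to 188 to 362 CPM on CD and to 266 to 517 CPM on WD, with 0 to 4 of them increased per strain. Stellate cell markers summed to 132 to 326 CPM on CD and 241 to 380 CPM on WD, with 0 to 3 of 5 increased, lymphocyte markers to 5.86 to 19.3 and 7.36 to 31.6 CPM, with 0 to 3 of 4 increased, endothelial markers to 202 to 252 and 176 to 271 CPM, with up to 2 of 4 decreased and up to 1 increased, and cholangiocyte markers to 6.65 to 19.7 and 5.58 to 16.9 CPM, with up to 3 of 4 increased and up to 1 decreased. No marker was at 0 in any group. Over the 7 strains, 9.44% of combinations of gene and strain fell and 10.5% rose for all genes tested. Decreases made up 57.1% for hepatocyte, 21.4% for endothelial, and 3.57% for cholangiocyte markers. Increases made up 28.6% for macrophage, 25.0% for lymphocyte, 22.9% for stellate cell, and 10.7% for both endothelial and cholangiocyte markers, the last 2 near the share of all genes. The 3 cholangiocyte increases were all in PWK/PhJ. In bulk liver, fewer cells of a type and less RNA per cell cannot be told apart, and the part of these markers in the results below was not tested.

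The stretches of DNA upstream of 4 of the genes are shown first, picked with their response to diet known. Srebf2 and Insig1 fell on WD in 7 strains, Tmem97 in 4, and Mylip in 0. Scap, which fell in 4 strains as Tmem97 did, and Insig2 are not shown. Each stretch shown runs 5′ to 3′ on the strand of the gene and ends where the first annotated transcript begins, in RefSeq sequence of GRCm38.p6. The locations are chr15:82147019-82147180 (+) for Srebf2, chr5:28071162-28071362 (+) for Insig1, chr11:78550778-78550985 (-) for Tmem97, and chr13:45389492-45389741 (+) for Mylip. Capitals mark a match, on either strand, to the letters TCACNCCA, which are the core of a sterol response element without its last base, to the E-box CACGTG, or to the NF-Y box CCAAT, which reads as ATTGG from the opposite strand.
Srebf2: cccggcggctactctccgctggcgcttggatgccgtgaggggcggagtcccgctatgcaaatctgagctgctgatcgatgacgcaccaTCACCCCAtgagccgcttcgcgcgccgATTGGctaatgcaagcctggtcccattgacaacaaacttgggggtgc
Insig1: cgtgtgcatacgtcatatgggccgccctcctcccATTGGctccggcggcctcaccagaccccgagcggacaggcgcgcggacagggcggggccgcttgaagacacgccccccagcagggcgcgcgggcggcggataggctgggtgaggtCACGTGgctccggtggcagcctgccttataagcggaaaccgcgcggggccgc
Tmem97: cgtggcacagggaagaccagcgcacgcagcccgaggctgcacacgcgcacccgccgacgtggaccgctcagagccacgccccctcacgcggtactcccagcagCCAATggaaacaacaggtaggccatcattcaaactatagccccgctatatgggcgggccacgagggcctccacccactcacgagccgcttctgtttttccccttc
Mylip: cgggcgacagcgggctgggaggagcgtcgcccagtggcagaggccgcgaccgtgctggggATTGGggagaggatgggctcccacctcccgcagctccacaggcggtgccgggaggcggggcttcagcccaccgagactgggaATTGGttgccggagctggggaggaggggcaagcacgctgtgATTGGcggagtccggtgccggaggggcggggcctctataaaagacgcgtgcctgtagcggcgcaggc

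RefSeq windows of 250 bases before to 50 bases after a transcript start were at hand for 6 of the 7 genes, with 9 windows in all, and none for Stard4. No window of the 6 genes held the 9 letters TCACNCCAC, which 1.24% of 32851 mouse windows held on either strand. The Srebf2 window held the letters without the final C, beginning at position -162 from the RefSeq start, and an NF-Y box at -135. Such a match to TCACNCCA, which includes every TCACNCCAC, stood in 4.36% of all windows, and these shorter letters were searched only after the longer ones had given no match. The E-box stood in the Insig1 window at -101 and in both Scap windows, against 7.15% of all windows. NF-Y boxes, found in 37.4% of all windows, stood in those of Srebf2, Insig1, Insig2, Mylip, and Tmem97, and GGGCGG, the Sp1 box, in a window of each of the 6 genes, against 35.7%. A pair of AGGTCA repeats in the same direction 4 bases apart, the letters that the sterol receptor LXR can bind, was in 0.0152% of all windows and in none of these. Neither Scap window held an NF-Y box or the letters TCACNCCA. These are matches of letters and not measured binding sites, and their link with the response to diet was not tested.

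Compared per kilobase, Insig2 RNA was the most abundant of the 7, with a median of 92.8 CPM per kb over the 45 mice on CD and 79.0 over the 48 on WD. Insig1 followed on CD at 60.9 and was at 28.6 on WD, and Tmem97 was at 43.2 and 34.7. Stard4 was at 22.6 and 14.0 CPM per kb, and Scap at 15.8 and 11.3. Srebf2 itself, at 7.07 and 4.63, and Mylip, at 6.23 and 6.33, were the least abundant. The plot of CPM by mouse shows the same data gene by gene.

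**Figure D1:**
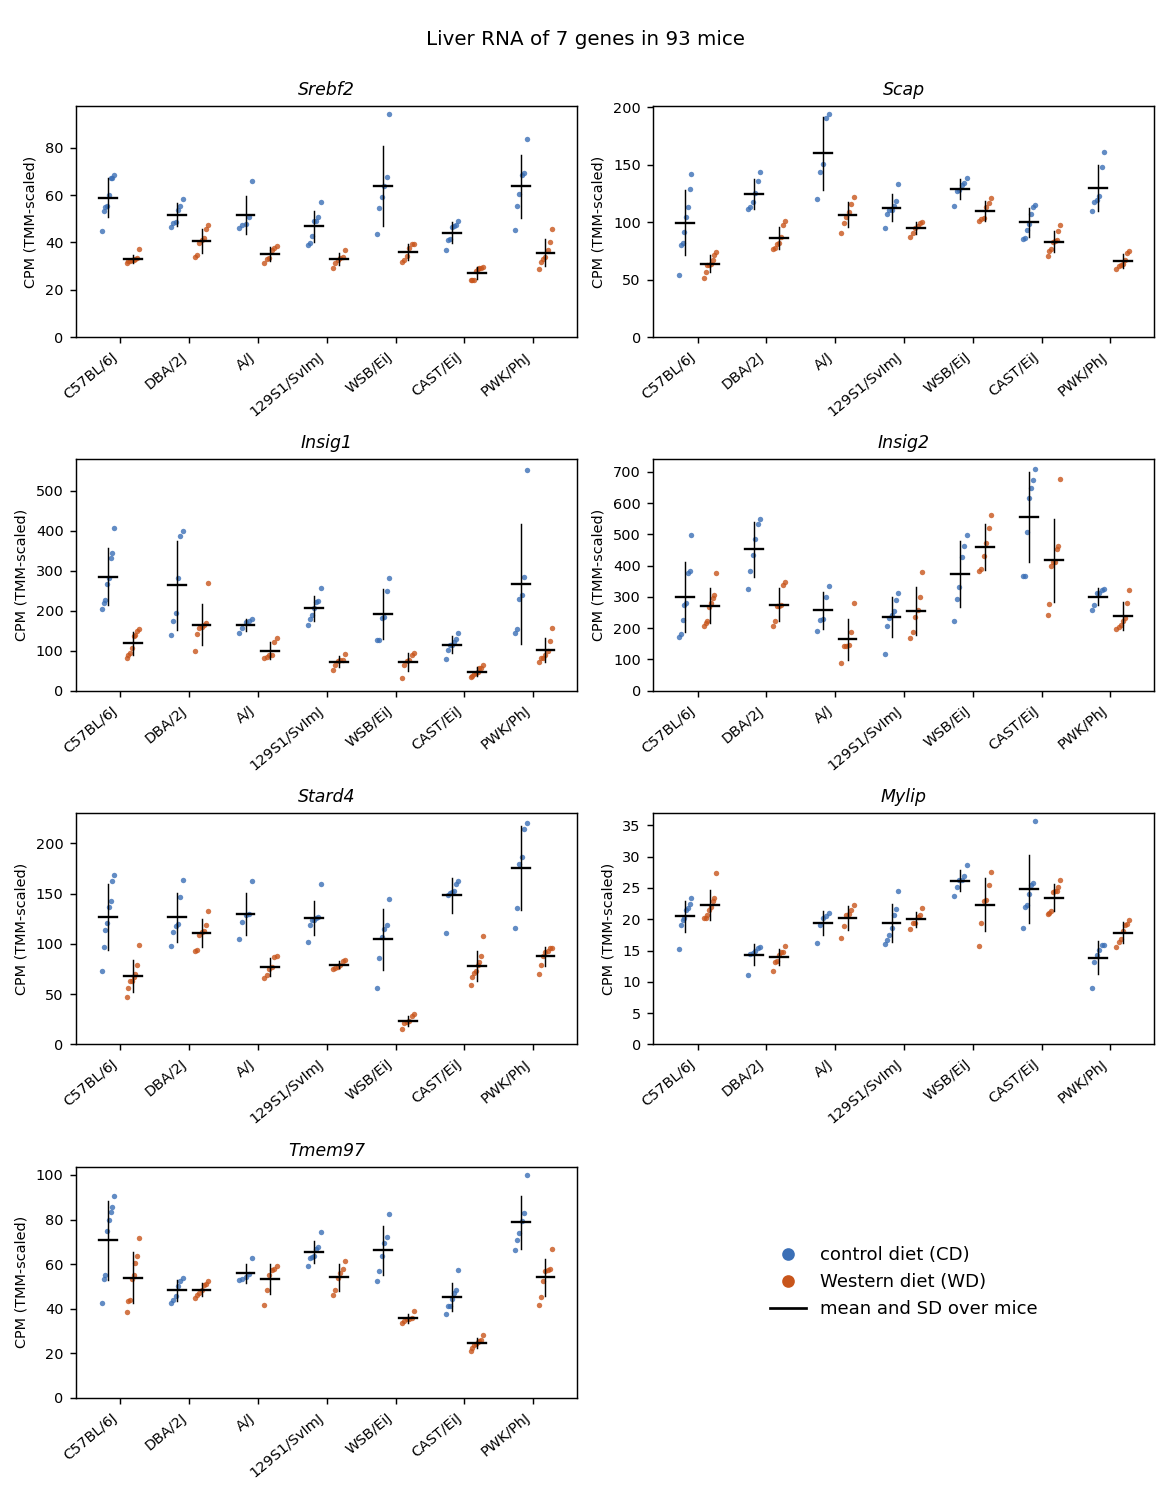
CPM (vertical axes, from 0, a separate scale for each gene) of the 7 genes in each of 93 mice, by strain and diet; points are mice, horizontal bars are means, and vertical bars are SDs. Srebf2 and Insig1 means are lower on WD in all 7 strains, Stard4 on WD is at 15.3 to 30.4 CPM in WSB/EiJ, and Mylip on WD lies among the CD mice in most strains.

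WD lowered most of these transcripts in most strains. Of the 49 comparisons of WD with CD (7 genes in 7 strains), 30 were decreases and 1 was an increase at an adjusted p below 0.05 (limma-voom, adjusted over 19110 genes in each strain). By strain, 5 of the 7 genes fell in C57BL/6J, where 11.9% of all genes tested fell, 4 in DBA/2J (7.77% of all genes), 5 in A/J (4.64%), 3 in 129S1/SvImJ (13.6%), 4 in WSB/EiJ (3.97%), 4 in CAST/EiJ (9.73%), and 5 in PWK/PhJ (14.5%). The increase was that of Mylip in PWK/PhJ, where 15.1% of all genes rose. Each strain's share of decreased members was larger than its share over all genes. The median log2 fold change over the 7 genes ran from -0.28 in 129S1/SvImJ to -0.82 in PWK/PhJ, while that of all genes tested lay between -0.01 and 0.02.

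Srebf2 and Insig1 fell in all 7 strains, which 0.324% of the genes tested did, and Stard4 fell in 6, where 0.942% of genes fell in 6 or 7. With cohort within strain as a covariate, Insig1 fell in 5, since DBA/2J (adjusted p = 0.0516) and A/J (0.0703) missed the threshold (ranges over the alternatives 0.0128 to 0.169 and 0.00218 to 0.116). Scap and Tmem97 fell in 4 strains each and Insig2 in 2. In 19 of the 49 comparisons, every mouse on WD was below every mouse on CD, against 3.41% of all combinations of gene and strain. These 19 were 5 each for Srebf2, Insig1, and Stard4 and 2 each for Scap and Tmem97.

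**Figure D2:**
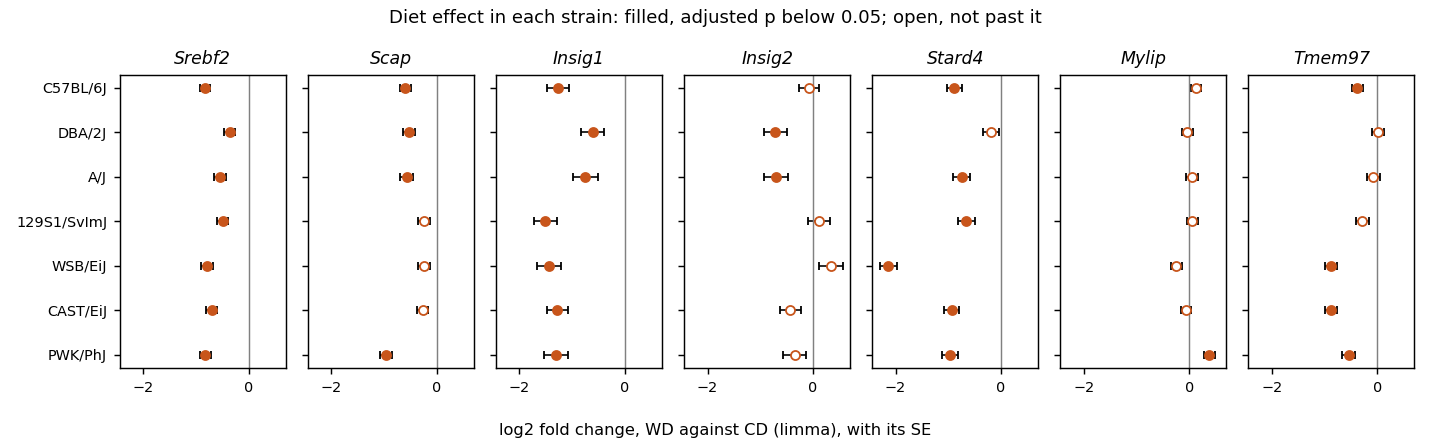
log2 fold change of WD against CD (horizontal axes, the same for all panels) for each gene in each strain, with its SE from limma; filled points passed an adjusted p of 0.05 and open points did not. Srebf2 and Insig1 are filled in all 7 strains, Stard4 reaches -2.14 in WSB/EiJ, and Mylip has 1 filled point, at 0.38 in PWK/PhJ.

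Srebf2, the gene of the transcription factor, lies at chr15:82147181-82205379 on the plus strand (GRCm38) and carries the microRNA gene Mir33 within an intron. In C57BL/6J it was at 44.8, 57.7, and 68.7 CPM (lowest, median, and highest of 8 mice) on CD and at 31.3, 32.6, and 37.1 CPM on WD. In WSB/EiJ the values were 43.7, 61.4, and 94.2 CPM on CD and 31.7, 36.2, and 39.6 CPM on WD, and in CAST/EiJ they were 36.9, 46.4, and 49.1 CPM and 24.2, 28.3, and 29.7 CPM. The diets did not overlap in these 3 strains. A/J mice on CD were at 50.8, 65.9, 46.1, 47.9, and 47.3 CPM, and those on WD between 31.5 and 38.5, with a median of 35.2. In 129S1/SvImJ the range was 39.0 to 57.2 CPM with a median of 49.01 on CD and 29.2 to 36.9 with a median of 33.2 on WD. Both of these strains had no overlap either. PWK/PhJ ran from 45.2 through a median of 64.3 to 83.7 CPM on CD and from 28.7 through 34.0 to 45.5 CPM on WD, where 6 of 7 mice on WD were below all on CD. DBA/2J ran from 46.5 through 51.1 to 58.5 CPM on CD and from 33.7 through 41.2 to 47.5 CPM on WD, again with 6 of 7 below. In each strain, at least 6 of the WD mice were below every CD mouse for Srebf2.

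The Srebf2 log2 fold change was -0.82 ± 0.10 (SE) in C57BL/6J (adjusted p = 1.54e-10), -0.82 ± 0.11 in PWK/PhJ (2.18e-09), -0.79 ± 0.11 in WSB/EiJ (1.08e-07), and -0.70 ± 0.10 in CAST/EiJ (2.03e-07). It was smaller in A/J at -0.54 ± 0.12 (0.000882), 129S1/SvImJ at -0.50 ± 0.11 (0.000204), and DBA/2J at -0.36 ± 0.11 (0.011). As folds, CD was between 1.28 times WD in DBA/2J and 1.77 times WD in PWK/PhJ. The 7 effects differed among strains (F test of limma, adjusted p = 0.0324), and 37.5% of all genes tested passed that test. Without DBA/2J WD replicate 5, a mouse that stood apart in another gene, this adjusted p was 0.0534, and over all alternatives it ran from 0.0155 to 0.0736. No single strain passed the test against the mean of the other 6 for Srebf2, and DBA/2J was nearest with a difference of 0.34 (adjusted p = 0.0539, range over the alternatives 0.0216 to 0.108).

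Scap, which encodes the sterol-sensing escort, lies at chr9:110333288-110384950 on the plus strand and shares 985 exon bases (13.2% of its exon length) with an antisense gene that had a median of 4 reads. Whether counting used the strand is not stated, so reads of the pair cannot be told apart. In PWK/PhJ it was at 109.9, 121, and 161 CPM (lowest, median, and highest) on CD and at 58.9, 64.0, and 74.8 CPM on WD. In DBA/2J it was at 112, 122, and 144 CPM on CD and at 77.0, 82.0, and 101 CPM on WD. Neither strain had any overlap between diets. In C57BL/6J the CD mice spread from 54.1 to 142 CPM with a median of 97.8 and the WD mice from 51.6 to 74.2 with a median of 63.2, and only 1 WD mouse was below all CD mice. A/J mice on CD were at 194, 191, 150.3, 144, and 120.2 CPM and those on WD at 90.4 to 121, with a median of 106.

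Scap fell by 0.96 ± 0.11 (SE) on the log2 scale in PWK/PhJ (adjusted p = 5.03e-11), by 0.60 ± 0.10 in C57BL/6J (1.98e-06), by 0.57 ± 0.12 in A/J (0.000842), and by 0.53 ± 0.11 in DBA/2J (0.000218). In 129S1/SvImJ, WSB/EiJ, and CAST/EiJ the log2 fold changes were -0.24, -0.24, and -0.27, with adjusted p of 0.0924, 0.218, and 0.0561, which missed the threshold of limma-voom. Other fits moved these 3 values across it: separate fits for each strain gave adjusted p of 0.00952, 0.0395, and 0.0491, and the alternatives spanned 0.00738 to 0.224, 0.0395 to 0.384, and 0.0366 to 0.186. The 7 effects differed among strains (F test, adjusted p = 0.000548). The PWK/PhJ effect was larger than the mean of the other 6 by -0.56 ± 0.12 (adjusted p = 0.000491), a test that 16.3% of all genes passed.

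Insig1, the sterol-regulated retention factor, lies at chr5:28071363-28078662 on the plus strand. In 129S1/SvImJ it was at 166, 206, and 257 CPM (lowest, median, and highest) on CD and at 51.2, 75.8, and 92.3 CPM on WD. In WSB/EiJ it was at 126, 183, and 282 CPM on CD and at 31.7, 74.8, and 94.9 CPM on WD. C57BL/6J mice were at 203, 274, and 405 CPM and at 81.3, 121, and 155 CPM. The diets were apart in each of these strains, and so were they in CAST/EiJ, with 79.6 to 144 CPM on CD (median 115) and 35.3 to 64.0 on WD (median 45.7). A/J mice on CD stood at 178, 173, 174, 156, and 143 CPM, above the WD mice at 82.6 to 132 CPM with a median of 88.8. PWK/PhJ mice ranged from 143 to 552 CPM on CD with a median of 234 and from 72.9 to 156 on WD with a median of 88.5, so that 6 of 7 WD mice were below all CD mice. DBA/2J had the widest overlap, with 138 to 400 CPM on CD (median 239) and 98.8 to 269 CPM on WD (median 159).

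Insig1 had the largest median effect of the 7 genes, at -1.28. It fell by 1.51 ± 0.22 (SE) on the log2 scale in 129S1/SvImJ (adjusted p = 1.41e-07), by 1.43 ± 0.23 in WSB/EiJ (2.95e-06), by 1.30 ± 0.23 in PWK/PhJ (3.28e-06), by 1.28 ± 0.20 in CAST/EiJ (1.55e-06), and by 1.27 ± 0.20 in C57BL/6J (1.05e-06). The effects in A/J, -0.75 ± 0.24 (adjusted p = 0.035), and in DBA/2J, -0.61 ± 0.23 (adjusted p = 0.0467), lay close to the threshold. Both lost the call under several alternatives, with adjusted p of 0.116 in A/J when genes with any count were kept and 0.169 in DBA/2J without DBA/2J CD replicate 6. Over the alternatives, the adjusted p ran from 0.00218 to 0.116 in A/J and from 0.0128 to 0.169 in DBA/2J. The F test of the 7 Insig1 effects gave an adjusted p of 0.103, so strains were not shown to differ in it, although the effects ranged from -0.61 to -1.51. Without DBA/2J CD replicate 6 that adjusted p was 0.0485, the lowest of a range up to 0.213 over the alternatives.

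Insig2, the retention factor that is not a known target of SREBP2, lies at chr1:121304353-121332589 on the minus strand. In DBA/2J it was at 324, 460.0, and 549.9 CPM (lowest, median, and highest) on CD and at 206, 271, and 346 CPM on WD, and 5 of 7 WD mice were below all CD mice. A/J mice on CD were at 298, 336, 192, 228, and 230.4 CPM, and those on WD ranged from 89.1 to 281 with a median of 144. In WSB/EiJ the order of the means was the other way, with 223, 379, and 498 CPM on CD and 382, 452, and 563 CPM on WD. The diets overlapped in every strain.

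Insig2 fell by 0.71 ± 0.21 (SE) on the log2 scale in DBA/2J (adjusted p = 0.0113) and by 0.70 ± 0.23 in A/J (0.034), and the A/J call was lost under edgeR's quasi-likelihood test (adjusted p = 0.0559) and in 6 of the 11 fits without 1 A/J mouse, with a range of 0.00553 to 0.16 over the alternatives. In the other 5 strains the log2 fold change was -0.43 in CAST/EiJ (adjusted p = 0.124), -0.35 in PWK/PhJ (0.215), -0.07 in C57BL/6J (0.832), 0.11 in 129S1/SvImJ (0.744), and 0.34 in WSB/EiJ (0.398). The 7 effects differed among strains by the F test (adjusted p = 0.0164), while no strain passed the test against the mean of the other 6. The strains in which Insig2 fell, DBA/2J and A/J, were those in which Insig1 fell least. That link was not tested, and the Insig1 effects were not shown to differ among strains (F test, adjusted p = 0.103).

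The same values were also expressed as the ratio of Insig1 to Insig2 in each mouse, per kilobase of exon. This adds no independent evidence on the pair, and differences between strains in the ratio were not tested. The ratio dropped from a geometric mean of 1.01 on CD to 0.329 on WD in 129S1/SvImJ (log2 difference -1.62, adjusted p = 0.00816), from 0.574 to 0.168 in WSB/EiJ (-1.77, adjusted p = 0.0101), from 1.11 to 0.485 in C57BL/6J (-1.19, adjusted p = 0.0218), and from 0.237 to 0.132 in CAST/EiJ (-0.85, adjusted p = 0.00218), by 2-sided exact permutation tests adjusted over 14 ratios. In PWK/PhJ it was 0.901 on CD and 0.466 on WD (-0.95, exact permutation test, adjusted p = 0.0685), and permuting mice only within cohorts gave an adjusted p of 0.04. DBA/2J was at 0.615 on CD and 0.659 on WD (0.10, exact permutation test, adjusted p = 0.879), and A/J at 0.733 and 0.708 (-0.05, exact permutation test, adjusted p = 0.904). CAST/EiJ had the lowest mean ratio of the 7 strains on both diets. The sum of Insig1 and Insig2 relative to Scap differed little: the log2 differences ran from -0.29 in CAST/EiJ to 0.21 in PWK/PhJ and no strain passed the exact permutation test, with the lowest adjusted p at 0.233.

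**Figure D3:**
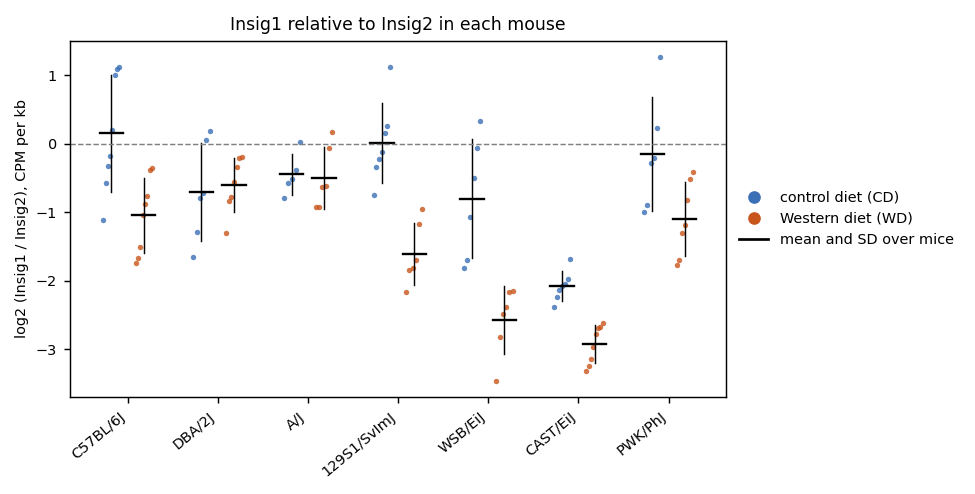
log2 of the Insig1 to Insig2 ratio (vertical axis, both in CPM per kb) in each of 93 mice by strain and diet; points are mice, horizontal bars are means, and vertical bars are SDs. The means are lower on WD in C57BL/6J, 129S1/SvImJ, WSB/EiJ, CAST/EiJ, and PWK/PhJ, while DBA/2J and A/J differ by 0.10 and -0.05.

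Stard4, which encodes a soluble carrier of cholesterol and is known as a target of SREBP2, lies at chr18:33199355-33213862 on the minus strand. WSB/EiJ mice were at 56.0, 110.5, and 145 CPM (lowest, median, and highest of 6) on CD and at 15.3, 22.5, and 30.4 CPM on WD. This is the lowest group of the 14. In PWK/PhJ the values were 116, 183, and 219.9 CPM on CD and 70.3, 91.6, and 96.0 CPM on WD, in CAST/EiJ 111, 152, and 163 CPM and 58.7, 75.8, and 107 CPM, and in 129S1/SvImJ 102, 124, and 159 CPM and 75.1, 78.4, and 84.0 CPM. A/J mice on CD were at 129, 130.2, 105, 121, and 162 CPM and those on WD at 65.8 to 87.9 with a median of 76.0. In all of these strains the diets did not overlap. C57BL/6J had 72.8 to 168 CPM on CD with a median of 129 and 46.8 to 99.2 CPM on WD with a median of 65.1, and 6 of 8 WD mice were below all CD mice. In DBA/2J the ranges lay largely over each other, 97.98 to 163 CPM on CD with a median of 119 and 93.3 to 133 CPM on WD with a median of 112.

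Stard4 fell by 2.14 ± 0.16 (SE) on the log2 scale in WSB/EiJ (adjusted p = 8.87e-18), a 4.41-fold lower level. The decreases in PWK/PhJ, CAST/EiJ, C57BL/6J, A/J, and 129S1/SvImJ were between 0.66 and 0.97, with adjusted p between 4.62e-07 and 0.00133. DBA/2J had a log2 fold change of -0.18 ± 0.15 (adjusted p = 0.465). The strains differed in the Stard4 effect (F test, adjusted p = 1.69e-08). WSB/EiJ was below the mean of the other 6 by -1.41 ± 0.18 (adjusted p = 3.67e-08), where 0.947% of all genes passed that test, and DBA/2J was above it by 0.87 ± 0.17 (adjusted p = 0.000297), where 7.77% of all genes passed. Both Stard4 differences kept their side of the threshold in every alternative fit.

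Mylip, the ligase that limits LDL uptake and is induced by LXR in some tissues, lies at chr13:45389742-45412022 on the plus strand. Whether LXR acts on it in these livers was not tested. In PWK/PhJ it was at 8.96, 14.7, and 15.8 CPM (lowest, median, and highest) on CD and at 15.6, 18.1, and 19.9 CPM on WD, and 6 of 7 WD mice were above all CD mice. It rose there by 0.38 ± 0.11 (SE) on the log2 scale (adjusted p = 0.00392), a 1.30-fold increase. In WSB/EiJ it was at 23.7, 26.3, and 28.6 CPM on CD and at 15.7, 23.0, and 27.5 CPM on WD, with a log2 fold change of -0.25 ± 0.11 (adjusted p = 0.146). The other 5 strains had values between -0.06 and 0.13, all short of the threshold with adjusted p of 0.307 or more. With sample quality weights the WSB/EiJ value was a decrease (-0.28, adjusted p = 0.0352, in a range up to 0.273 over the alternatives), and its difference from the mean of the other 6 strains passed (-0.38, adjusted p = 0.024, in a range up to 0.221). In the fit used throughout, Mylip was the only one of the 7 genes with no decrease in any strain. Its effects differed among strains (F test, adjusted p = 0.0163), and PWK/PhJ stood above the mean of the other 6 by 0.40 ± 0.12 (adjusted p = 0.011).

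Tmem97, which encodes the sigma-2 receptor, lies at chr11:78541817-78550777 on the minus strand. In CAST/EiJ it was at 37.9, 44.4, and 57.4 CPM (lowest, median, and highest) on CD and at 21.0, 24.6, and 28.4 CPM on WD, and in WSB/EiJ at 52.5, 66.6, and 82.3 CPM on CD and 33.4, 35.5, and 39.2 CPM on WD. Neither strain had any overlap. PWK/PhJ mice were at 66.1, 76.7, and 99.8 CPM and at 41.8, 57.1, and 66.9 CPM, with 6 of 7 WD mice below all CD mice. DBA/2J mice, at 42.7, 48.1, and 53.9 CPM on CD and 44.9, 48.3, and 52.5 CPM on WD, had fully overlapping ranges.

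Tmem97 fell by 0.88 ± 0.12 (SE) on the log2 scale in WSB/EiJ (adjusted p = 6.57e-08), by 0.87 ± 0.11 in CAST/EiJ (5.84e-09), by 0.54 ± 0.12 in PWK/PhJ (0.000122), and by 0.38 ± 0.10 in C57BL/6J (0.00373). The C57BL/6J call was not stable: within cohort 1 (3 CD and 5 WD mice) the log2 difference was 0.02 and within cohort 2 (5 and 3 mice) it was -0.77, and a separate fit gave an adjusted p of 0.143, the highest of a range from 0.000856. This was the sole exception among the 31 called comparisons, the other 30 having the same sign in every cohort. In 129S1/SvImJ the log2 fold change was -0.28 ± 0.12 (adjusted p = 0.0591), in A/J -0.07 (0.789), and in DBA/2J 0.02 (0.96). The effects differed among strains (F test, adjusted p = 5.06e-06). WSB/EiJ and CAST/EiJ were below the mean of the other 6 by -0.52 each (adjusted p = 0.0245 and 0.00166, SE 0.13 and 0.12), the latter a test that 14.5% of all genes passed, and DBA/2J was above it by 0.52 ± 0.13 (adjusted p = 0.00455). The WSB/EiJ difference was lost when genes with any count were kept (adjusted p = 0.0913, from 0.00277 under the other alternatives).

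DBA/2J had the smallest effect of the 7 strains for Srebf2, Insig1, and Stard4, and its Tmem97 effect was the only positive one. Against the mean of the other 6, its Srebf2 and Insig1 effects did not pass the limma test (adjusted p = 0.0539 and 0.0887). Its Insig2 decrease, at -0.71, was the largest of the 7 strains, and Scap also fell there, by 0.53. Srebf1, the paralog of Srebf2 that drives fatty acid synthesis, moved the other way from Srebf2: it rose on WD in 5 strains, with log2 fold changes of 0.70 in PWK/PhJ, 0.73 in DBA/2J, 0.77 in CAST/EiJ, 0.90 in A/J, and 1.18 in C57BL/6J, and it fell in 129S1/SvImJ (-0.69). In WSB/EiJ its log2 fold change of 0.55 did not pass the test.

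The strains also differed in the baseline level of all 7 genes. On CD, the F test across strains passed for all 7, as it did for 93.7% of all genes, and on WD it passed for all 7 against 93.9% of all genes, so these calls do not set the 7 genes apart. Of the 21 strain pairs on CD, between 6 (Stard4) and 16 (Mylip) differed, against 48.0% of pairs over all genes, and on WD between 8 (Srebf2) and 14 (Scap and Insig2), against 50.4%. The differential mapping of the strains to the C57BL/6J genome and the strain cannot be told apart in these comparisons.

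On CD, Srebf2 was highest in WSB/EiJ and PWK/PhJ at 63.9 ± 17.0 and 63.7 ± 13.2 CPM (SD, n = 6 each), followed by C57BL/6J at 58.9 ± 8.33, DBA/2J at 51.8 ± 4.74, A/J at 51.6 ± 8.18, 129S1/SvImJ at 46.8 ± 6.59, and CAST/EiJ at 44.2 ± 4.36 CPM. No neighbours in that order differed, while PWK/PhJ was 1.42-fold above CAST/EiJ (limma, adjusted p = 2.87e-05). On WD, DBA/2J was highest at 40.6 ± 5.15 CPM and CAST/EiJ lowest at 27.2 ± 2.48, a 1.49-fold difference (adjusted p = 1.03e-06), and only the last neighbours, 129S1/SvImJ and CAST/EiJ, differed (adjusted p = 0.0188).

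Insig1 and Insig2 had opposite extremes in CAST/EiJ on CD. Insig1 was lowest there at 115 ± 20.6 CPM (SD, n = 7), 2.44-fold below C57BL/6J at 285 ± 70.6 (n = 8; adjusted p = 1.08e-07), and its nearest neighbour A/J, at 165 ± 14.6 CPM, was higher (adjusted p = 0.0447). Insig2 was highest in CAST/EiJ at 555 ± 143 CPM, 2.37-fold above 129S1/SvImJ at 236 ± 63.5 (adjusted p = 1.53e-07), with no neighbours in the order differing. On WD, Insig1 was 3.4-fold higher in DBA/2J, at 165 ± 51.5 CPM, than in CAST/EiJ, at 47.8 ± 10.6 (adjusted p = 4.27e-12). Insig2 on WD was highest in WSB/EiJ at 459.6 ± 72.1 CPM and CAST/EiJ at 417 ± 132, both of which stood above the other 5 strains, and lowest in A/J at 165 ± 65.0 CPM.

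Stard4 on CD ran from 104 ± 30.5 CPM in WSB/EiJ to 175 ± 42.0 in PWK/PhJ, a 1.71-fold difference (limma, adjusted p = 2.57e-05), and no neighbours differed. On WD it ran from 23.3 ± 5.30 CPM in WSB/EiJ to 110.3 ± 13.9 in DBA/2J, a 4.82-fold difference (adjusted p = 5.18e-22). WSB/EiJ on WD was also far below its neighbour C57BL/6J at 68.1 ± 15.7 CPM (log2 difference 1.55, adjusted p = 1.33e-14). Tmem97 on WD was within 53.4 to 54.1 CPM on average in 129S1/SvImJ, PWK/PhJ, A/J, and C57BL/6J, at 48.6 ± 2.82 in DBA/2J, at 35.7 ± 1.92 in WSB/EiJ, and at 24.6 ± 2.25 in CAST/EiJ, and both of the last steps passed the test (adjusted p = 0.00106 and 6.09e-05).

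Scap on CD was highest in A/J at 159.9 ± 31.8 CPM and lowest in C57BL/6J at 99.6 ± 28.5, a 1.64-fold difference (adjusted p = 2.81e-07), and on WD it was 1.73-fold higher in WSB/EiJ than in C57BL/6J (adjusted p = 1.35e-09). Mylip on CD was lowest in PWK/PhJ at 13.9 ± 2.60 CPM and DBA/2J at 14.3 ± 1.64, which did not differ from each other (adjusted p = 0.667), and highest in WSB/EiJ at 26.2 ± 1.64, 1.92-fold above PWK/PhJ (adjusted p = 7.92e-12). On WD, DBA/2J alone was at the bottom with 14.0 ± 1.29 CPM, below its neighbour PWK/PhJ at 17.9 ± 1.65 (adjusted p = 0.00245).

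Mice of the same strain and diet also varied together in some of these genes. To measure this, group means were removed from the log2 CPM values of the 93 mice, and 35 pairs are described: the 21 among the 7 genes, and the 14 of the 7 genes with the synthesis enzymes Hmgcs1 and Sqle. The p-values were adjusted over 49 pairs, those not reported included. Correlations passed an adjusted p of 0.05 in 13 of the 35, 5 among the 7 genes and 8 with the enzymes, by 100000 permutations of mice within groups, for which 1e-05 is the smallest p. All points share the libraries and the scaling of each mouse. The share of pairs of other genes that would pass was not measured, so the 13 do not set these genes apart.

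Srebf2 and Tmem97 had a Pearson's r of 0.54 (permutation p = 1e-05, adjusted 3.77e-05) and a Spearman's rho of 0.47 (permutation p = 1e-05, adjusted 3.5e-05), and r was 0.49 without the 2 most distant mice. The r was positive within each of the 7 strains, from 0.08 to 0.81. For Insig1 and Stard4, r was 0.50 (permutation p = 3e-05, adjusted 9.19e-05) and rho was 0.47 (p = 3e-05, adjusted 9.19e-05), with r at 0.44 without the 2 mice and positive in all strains. For Srebf2 and Insig1, r was 0.45 (permutation p = 5e-05, adjusted 0.000144) and rho 0.39 (p = 0.00051, adjusted 0.00132), with r at 0.40 without the 2 mice. Insig1 and Tmem97 had an r of 0.37 (permutation p = 0.00035, adjusted 0.000857) and a rho of 0.35 (p = 0.00157, adjusted 0.00385), 0.35 without the 2 mice, but within strains r ran from -0.78 to 0.74.

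Insig2 and Tmem97 went in opposite directions, with an r of -0.47 (permutation p = 2e-05, adjusted 7e-05) and a rho of -0.46 (p = 5e-05, adjusted 0.000136). It was -0.44 without the 2 mice and negative in each of the 7 strains, from -0.16 to -0.66. Among the 35 pairs, Insig2 passed the test with no other gene, and neither Scap nor Mylip passed it with any.

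Srebf2, Insig1, Stard4, and Tmem97 each covaried with both synthesis enzymes over the 93 mice. Within strains, r was positive in all 7 for Srebf2 with Hmgcs1, Stard4 with Hmgcs1, and Tmem97 with Sqle. In the other 5 pairs it was positive in 6 strains, and its lowest value was -0.42 for Srebf2 with Sqle, -0.40 for Tmem97 with Hmgcs1, -0.27 for Stard4 with Sqle, -0.23 for Insig1 with Sqle, and -0.18 for Insig1 with Hmgcs1. The strongest of these pairs was Srebf2 with Hmgcs1, at r = 0.72 and rho = 0.66 (permutation p = 1e-05 for both, adjusted 3.77e-05 and 3.5e-05; r = 0.68 without the 2 mice), and the weakest was Stard4 with Sqle, at r = 0.38 (permutation p = 0.00253, adjusted 0.0059) and rho = 0.34 (p = 0.0026, adjusted 0.00607), with r at 0.31 without the 2 mice. The latter missed the threshold when cohort means were also removed (r = 0.32, permutation test, adjusted p = 0.0833, from 0.00527 under the other alternatives). Insig1 with Hmgcs1 had an r of 0.61 and a rho of 0.59 (permutation p = 1e-05 for both, adjusted 3.77e-05 and 3.5e-05), and r was 0.58 without the 2 mice.

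**Figure D4:**
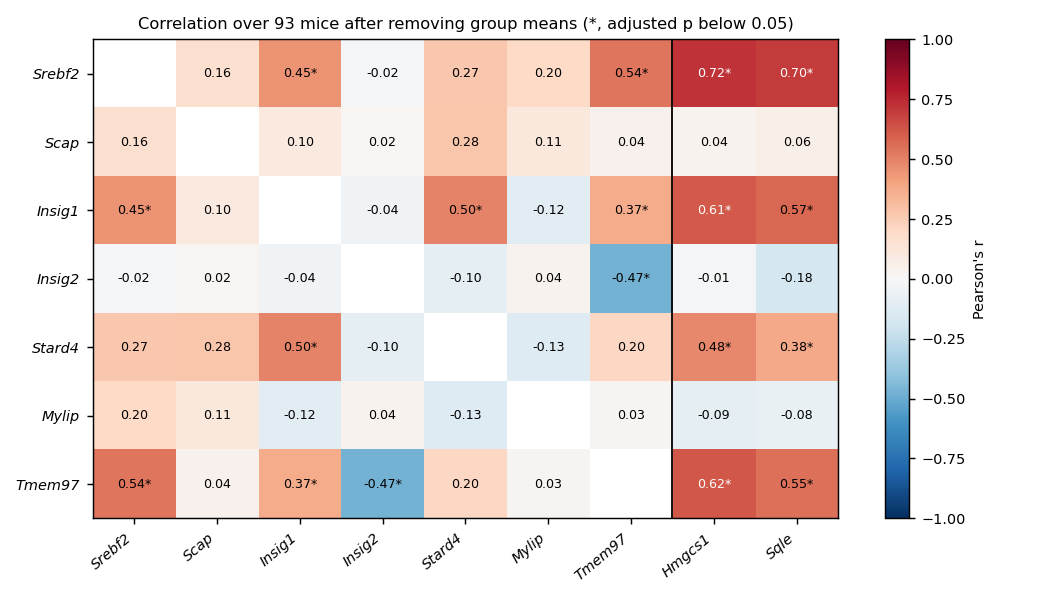
Pearson's r (color and printed number) of each of the 7 genes (rows) with the others and with Hmgcs1 and Sqle (columns) over 93 mice after removing the mean of each strain and diet; an asterisk marks an adjusted permutation p below 0.05. The rows of Srebf2, Insig1, Stard4, and Tmem97 are positive with both genes on the right, from 0.38 to 0.72, and the only asterisk on a negative value is that of Insig2 with Tmem97, at -0.47.

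The wider pathway was counted with gene lists. There were 19 SREBP2 target genes, all for enzymes of sterol synthesis or its precursors. Of these, 10 fell in DBA/2J, where 7.77% of all genes tested fell, 15 in A/J (4.64% of all genes), and 17 in WSB/EiJ (3.97%) and in CAST/EiJ (9.73%). All 19 fell in PWK/PhJ (14.5%), C57BL/6J (11.9%), and 129S1/SvImJ (13.6%), and none rose in any strain. Over the 7 strains, 87.2% of 133 combinations of gene and strain were decreases, against 9.44% for all genes tested. The median log2 fold change over the 19 was smallest in DBA/2J at -0.63 and largest in PWK/PhJ at -1.59. Sqle, an oxygenase of the synthesis pathway, fell in 7 strains, with log2 fold changes from -2.13 to -3.39. Idi1, the isopentenyl diphosphate isomerase, fell in 7 strains (-1.39 to -4.10), and so did Cyp51, the lanosterol demethylase (-1.21 to -3.04). Hmgcs1 fell in 6, from -0.75 to -2.10, with -0.60 in DBA/2J not past the threshold. Each of Sqle, Idi1, and Cyp51 had a larger change than Srebf2 in every strain. These 3 were picked from the list by their calls and the size of their changes, so this does not describe the list. Ebp, of the same list, changed less than Srebf2 in DBA/2J, at -0.09, and more in PWK/PhJ, at -1.05.

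The proteases and ubiquitin ligases around Scap and the Insigs had few calls. Of 8 genes for SREBP cleavage and Insig turnover, 0 to 2 fell and 0 to 3 rose per strain. Over the 7 strains these were 7.14% decreases and 17.9% increases of 56 combinations of gene and strain, against 9.44% and 10.5% for all genes tested, and the median log2 fold change was between -0.07 and 0.08. Erlin2, a membrane protein that works with such ligases, rose in 4 strains, with a highest value of 0.19 in WSB/EiJ. Rnf145, a ligase of the endoplasmic reticulum, rose in 3 strains, by 0.59 in A/J at the most. Paqr3, a Golgi protein known to bind Scap, fell in PWK/PhJ and CAST/EiJ, with log2 fold changes of -0.70 and -0.46. The protease gene Mbtps2 passed in no strain.

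LXR and its targets, a group that Mylip belongs to in some tissues, had more increases than decreases. Of 11 genes, 6 rose in C57BL/6J, where 14.3% of all genes tested rose, 4 in DBA/2J (10.2% of all genes), 5 in A/J (4.39%), 3 in 129S1/SvImJ (14.5%), 4 in WSB/EiJ (4.97%), 8 in CAST/EiJ (9.77%), and 4 in PWK/PhJ (15.1%). Between 0 and 2 fell per strain, 9.09% of 77 combinations against 9.44% for all genes. The list's median log2 fold change was lowest in PWK/PhJ, at 0.04, and highest, at 0.77, in CAST/EiJ. Abcg1, a sterol exporter, rose in 6 strains, with 1.27 in PWK/PhJ and 1.18 in C57BL/6J. Abcg5, part of the sterol exporter into bile, rose in 6 strains, with 1.73 in WSB/EiJ. In PWK/PhJ, where Mylip rose, the list's median was lowest, while Abcg1 had its highest value there and Abca1, another sterol exporter, rose by 0.51. How Mylip varied with these genes across strains was not tested.

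Of 12 genes for sterol transport and esterification, the group nearest to Stard4 in function, 0 to 3 fell and 1 to 3 rose per strain, and the medians were between -0.08 and 0.07. Of 84 combinations of gene and strain, 10.7% were decreases and 16.7% increases, against 9.44% and 10.5% for all genes, so the decreases were near the background. Gramd1b, which moves cholesterol from the plasma membrane to the endoplasmic reticulum, rose in 6 strains, with 1.84 in DBA/2J. Soat1, a cholesterol esterifying enzyme, rose in 3 strains, with 1.04 in PWK/PhJ, and Npc2, a lysosomal cholesterol carrier, fell in 3, with -0.39 in CAST/EiJ. No gene of this list had the broad decrease seen for Stard4, whose number of strains with a fall was 6 against at most 3 in the list.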

How the data were processed

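Liver RNA of 93 mice was sequenced, in libraries made with a SMARTER kit and read on a BGISEQ-500, according to the study's methods. The authors mapped reads to the mouse genome with STAR (version 2.7.1a and builds GRCm38 and mm10 per the submitters' processing notes), and deposited raw counts, whole numbers of reads per gene and mouse without normalization. The annotation release and the strandedness of counting are not given in the sources used here. The 4 summary lines of the table, 19.9 to 34.7% of the reads per mouse, were left out, and 53360 of 53465 genes were paired with a symbol of GENCODE M21 or a table of gene names.

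Genes with enough reads were taken with filterByExpr (minimum count 10, 19110 genes), scaled with TMM factors of 0.81 to 1.27, and fitted with voom and limma 3.58.1 (edgeR 4.0.16, R 4.3.3), with a mean for each of 14 groups. Benjamini–Hochberg adjustment was made over all genes of a contrast, and the threshold was 0.05. F tests and contrasts of 1 strain with the mean of the other 6 came from the same fit. CPM on the log2 scale had a prior count of 2. Alternatives were edgeR's quasi-likelihood test, DESeq2 1.42.0, upper-quartile scaling, genes with any count, cohort within strain or RNA integrity number as a covariate, separate fits, sample quality weights, and leaving out each A/J mouse. Leaving out 7 other mice that stood apart in 1 or 2 of the genes, and the shorter sterol response letters, were added after seeing the data. The fit was tested on simulated data.

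The 7 genes, the gene lists, and the tests were chosen with earlier results of these data known. Besides the 7 genes, the text names Hmgcs1, Sqle, Srebf1, up to 3 genes of each list that passed in the most strains (ties by median log2 fold change), and the 3 genes of most similar pattern. Abca1, Mbtps2, and the cell type markers were named outside this rule. Some genes that the rule or the lists held are not reported here, and the lists were counted without them. The p-values set a difference between means against the spread between mice, which includes counting error. The part of counting error in that spread was not tested.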

Additional observations from a re-analysis of the deposited data

Results flagged for a closer look

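Of 98 combinations of gene and group tested for a mouse far from the rest of its group (Dixon's test at 95%), 10 held one, where chance gives about 1 in 20, or 4.9. The highest of its group were Insig1 in DBA/2J on WD replicate 5 (269 CPM) and in PWK/PhJ on CD replicate 3 (552 CPM), Mylip in C57BL/6J on WD replicate 4 (27.4 CPM) and in CAST/EiJ on CD replicate 5 (35.7 CPM), Srebf2 in A/J on CD replicate 2 (65.9 CPM) and in C57BL/6J on WD replicate 2 (37.1 CPM), Stard4 in 129S1/SvImJ on CD replicate 2 (159 CPM), and Tmem97 in A/J on CD replicate 2 (62.9 CPM). The lowest were Mylip in DBA/2J on CD replicate 6 (11.1 CPM) and Stard4 in CAST/EiJ on CD replicate 5 (111 CPM). A/J on CD replicate 2 and CAST/EiJ on CD replicate 5 appear for 2 genes each.

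The F test of the 7 diet effects passed for Stard4 (adjusted p = 1.69e-08), Tmem97 (5.06e-06), Scap (0.000548), Mylip (0.0163), Insig2 (0.0164), and Srebf2 (0.0324), in limma. Against the mean of the other 6 strains, the log2 effect differed by -0.56 for Scap in PWK/PhJ, 0.87 for Stard4 in DBA/2J, -1.41 for Stard4 in WSB/EiJ, 0.40 for Mylip in PWK/PhJ, 0.52 for Tmem97 in DBA/2J, -0.52 for Tmem97 in WSB/EiJ, and -0.52 for Tmem97 in CAST/EiJ.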

How the results depend on the processing

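No paired analysis was possible because the labels give the mice no replicate numbers, and the numbers used here follow the order of deposit.

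No called result changed its direction under any alternative that was run. The 5 decreases in A/J became 3 with genes of any count and 3 with cohort as a covariate, and between 3 and 5 without 1 A/J mouse (3 without CD replicates 1 or 2 or WD replicates 1, 3, or 4), Insig1 and Insig2 being the calls lost. Over all genes, the A/J calls in either direction went from 1725 of 19110 to 1611 of 41553 and to 1457 of 19110 in the first 2 of these fits. The 3 decreases in 129S1/SvImJ became 5 in separate fits and 5 with sample quality weights, which added Scap and Tmem97. Calls over all genes in 129S1/SvImJ rose as well, from 5359 to 7155 and 7700 of 19110. The 7 differences of 1 strain from the other 6 became 12 with sample quality weights. In the main fit, that test passed for 7.77% of all genes in DBA/2J, 0.947% in WSB/EiJ, 14.5% in CAST/EiJ, and 16.3% in PWK/PhJ. The shares of all genes for that test with sample quality weights are not given here. With those weights, the genes that passed the F test of the diet effects also rose, from 7162 to 8591 of 19110. The Insig1 to Insig2 log2 difference in PWK/PhJ, -0.95, passed when mice were permuted within cohorts (exact permutation, adjusted p = 0.04). The F test of Srebf2 also missed the threshold with genes of any count (adjusted p = 0.0736, the highest of a range from 0.0155), and the Tmem97 difference of WSB/EiJ did so too (0.0913, from 0.00277). Over all alternatives, the 49 diet effects gave 481 values on the same side of the threshold, 28 that lost a call (4 effects: Insig1 in DBA/2J and A/J, Insig2 in A/J, and Tmem97 in C57BL/6J), and 9 that gained one (6 effects). Of the 35 correlations described, that of Stard4 with Sqle lost its call when cohort means were removed. The causes were not tested. Counts limit Mylip most, at 424 to 1502 reads per mouse.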

Other observations

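For each of the 7 genes, the 3 genes with the most similar log2 CPM were looked up among 11149 genes, as a description and leaving out genes not reported here, once over the 14 group means and once over the 93 mice after removing group means. Over group means, Insig1 was nearest to Pcyt2 (r = 0.95) and Cyp51 (0.94), Tmem97 to Me1 (0.93) and Pmvk (0.91), and Srebf2 to the ribosomal protein gene Rps27a (0.92), the sterol reductase gene Tm7sf2 (0.92), and Rps16 (0.92). Stard4 was nearest to Camk4 (0.91), Acacb (0.90), and Sephs1 (0.85), Scap to Mtfp1 (0.89), Pradc1 (0.88), and Lcat (0.88), Insig2 to Dedd (0.92), Atp2a2 (0.90), and Serpina3k (0.90), and Mylip to Mertk (0.90), BC005537 (0.89), and Med31 (0.89).

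Within groups, the nearest genes of Srebf2 were Msmo1 (r = 0.76), Hmgcs1 (0.72), and Sqle (0.70), those of Insig1 were Lss (0.80) and Mvd (0.69), and those of Tmem97 were Msmo1 (0.75) and Fdft1 (0.72), all of them SREBP2 targets of the list used above. Stard4 was nearest to Mgam (0.74), Erg28 (0.66), and Pdk1 (0.65), none of them in that list. The other 3 genes also had nearest genes outside that list: Clpx (0.82), Psmd11 (0.74), and Rhou (0.72) for Insig2, Zdhhc9 (0.71), Cyb5r3 (0.71), and Psen2 (0.71) for Scap, and Cfp (0.68), Emilin2 (0.66), and Smpdl3a (0.65) for Mylip. The points share libraries and scaling, and no test was made.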
